A study of Mus musculus with 12 samples.

Results

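Trigeminal ganglia of mice 2 weeks after a corneal keratectomy were compared with ganglia of untreated mice by bulk RNA sequencing. The members were the 3 libraries titled keratectomy injury and the 3 titled non-treated control, 6 of the 12 libraries of the series, chosen by title and not by any measured value. All mice were female C57BL/6J aged 8 weeks with no introduced allele. Injured mice had a disc of 1.5 mm diameter removed from the front layers of the cornea of 1 randomly chosen eye, under ketamine and xylazine, with Ethiqa XR (extended-release buprenorphine, an opioid) for pain. Controls are labelled as not treated, so wound, anaesthesia and analgesia moved together between the groups and cannot be told apart. The other 6 libraries came from mice with electrical stimulation, with or without the wound, and shared the fit, where they bear on the spread, the scaling and the filter on low counts. Neither the number of mice pooled in a library nor the side of the ganglion is labelled, and nothing states that replicates were separate animals. The p-values thus cover only library-to-library spread, which may be technical. RNA was poly(A)-selected and sequenced as paired reads on a NovaSeq X Plus. Whole ganglia were sequenced, so fewer cells of a type and less RNA per cell cannot be told apart.

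The trigeminal ganglion holds the cell bodies of the sensory neurons of the face, of which a small share reaches the cornea. Each cell body is wrapped by satellite glia, and its axon is ensheathed by myelinating or non-myelinating Schwann cells. Cutting corneal nerve endings is known to change neuronal excitability and axon growth genes in the cell body and to activate glia and macrophages around it. The central root of the ganglion carries oligodendrocytes and astrocytes, and its coverings are continuous with the meninges.

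The control libraries held 8396501 to 8930766 counted reads and the injury libraries 8398537 to 10751547. Each level below is scaled to the library's TMM-adjusted total (CPM). The deposited counts behaved as reads on GRCm38 coordinates counted in GRCm39 intervals: 36.0% of the nuclear intervals, those over GRCm38 exons, held 98.6% to 99.3% of the nuclear counts of a library. A gene was therefore named by where its interval lay on GENCODE M21 exons, and its level is that of the part of its exons under the interval, with reads of both strands. Of 9968 genes named in this way, 4771 were tested. Among 13053 intervals tested, 4046 (31.0%) were called between injury and control at an adjusted p under 0.05 (edgeR quasi-likelihood test, Benjamini-Hochberg). Values in brackets below are the log2 fold change, injury over control, ± a standard error (3 libraries a group), with the adjusted p of this test. The standard error was worked back from the test, as the absolute log2 fold change over the square root of its F statistic. The spread behind it was estimated over all 12 libraries. Among named genes 1533 (32.1%) were called, 930 higher (19.5%) and 603 lower (12.6%), and 2547 (53.4%) had no overlap between the 3 control and the 3 injury libraries. Most called genes below were named by small p, which favours non-overlap. Where it is given for them it describes the values and adds no support to the call. The share of calls that were higher depended on the scaling and on which libraries were in the fit. It was 60.7% with TMM on all 12 libraries and 49.9% with TMM on the 6 libraries alone. Leaving 1 stimulated library out of the TMM fit gave 48.4% to 59.6%, and leaving out 1 control or injury library 63.1% to 69.4%. Median-ratio size factors gave 54.4% and DESeq2 53.2%. Upper-quartile scaling gave 39.7% and moved the median log2 fold change of named genes from 0.03 to -0.16. For 718 genes a second, separate interval over the same gene could be compared: where both were called, 82 of 94 moved in the same direction, and where the first was called the second had the same sign in 175 of 244.

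Base composition moved with the groups. Across 4769 named genes the rank correlation of the log2 fold change with GC content was 0.45 and with transcript length -0.35 (genes are not independent replicates). Genes called higher had a median GC content of 54.4% and a median longest transcript of 3120 bases, genes called lower 43.9% and 5248 bases, and all tested genes 49.3% and 3886 bases. Level moved with it too: the median log2 fold change was -0.26 in the sixth of protein-coding genes with the lowest CPM and 0.33 in the sixth with the highest. Counts over gene lists, and calls of single genes where stated, are therefore also given after a smooth trend on GC content and length was taken out of every library, called trend-corrected. After this correction 966 named genes were called (20.2%), 664 higher (13.9%) and 302 lower (6.33%), and 729 of the 1533 kept their call and direction. With upper-quartile scaling 12.6% were higher and 19.1% lower. These shares are the background for the lists below. What part GC content, length or RNA handling had in a given result was not tested.

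**Figure D1:**
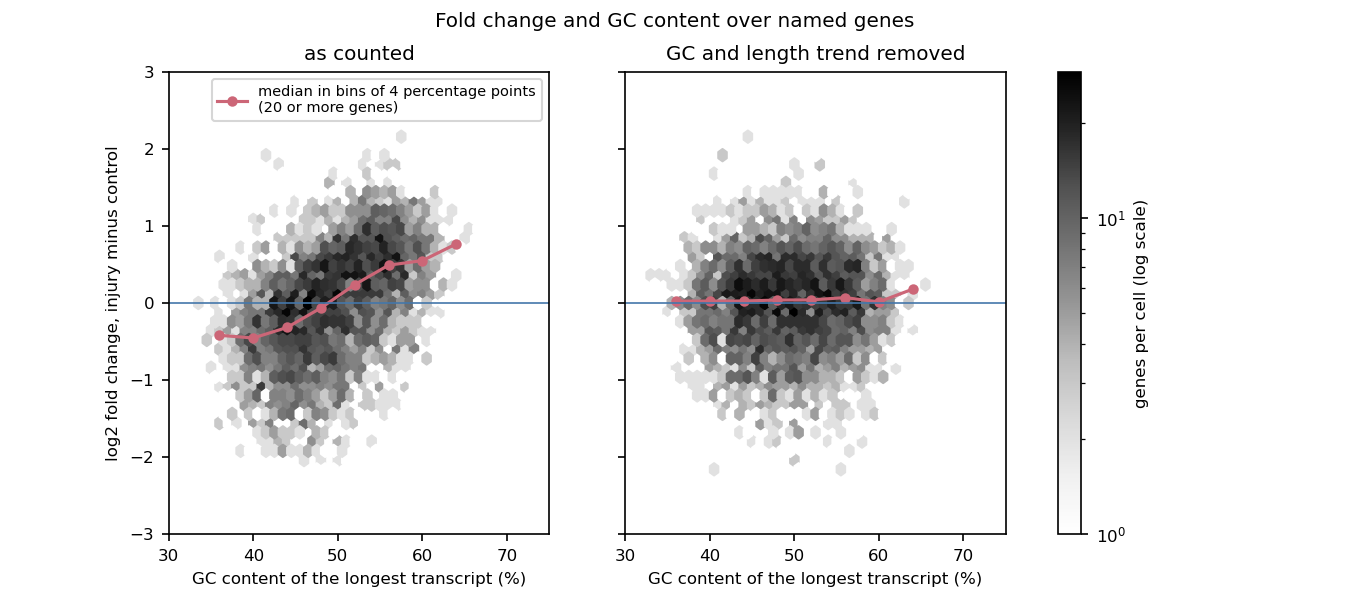
Log2 fold change (injury minus control, y axis) against the GC content of the longest transcript (x axis, %), as counted (left) and with the GC content and length trend removed (right). Grey cells count genes on a log scale and red points are medians in bins of 4 percentage points; the medians climb with GC content on the left and lie near 0 on the right.

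The tissue was checked against markers. Sensory neuron genes were present in every library: Avil, an actin-binding protein of sensory neurons, stood at 744, 854 and 709 CPM in controls and 927, 991 and 981 after injury, and Nefm, a neurofilament subunit, at 727, 722 and 713 CPM in controls and 663, 971 and 878 after injury. Neither Avil (0.33 ± 0.15, adjusted p = 0.096) nor Nefm (0.22 ± 0.17, adjusted p = 0.35) passed the test. Of 7 sensory neuron markers tested, 3 were higher (Thy1, Uchl1 and Elavl3) and 1 lower (Slc17a6), and the call of Elavl3 was lost when any 1 of the 6 libraries was left out (adjusted p up to 0.187). Trend-corrected 1 was higher and 1 lower. Summed sensory neuron markers were 4386 to 4965 CPM in controls and 6620 to 8162 after injury, without overlap. A sum follows its most abundant members, and markers of sensory neuron types overlapped. Peptidergic nociceptor sums were 764 to 889 CPM in controls and 784 to 849 after injury. Non-peptidergic nociceptor sums were 700 to 1092 and 1036 to 1128 CPM, and mechanoreceptor and cold sums 460 to 608 and 485 to 562 CPM. Markers of cells around the ganglion also differed between the groups. All 5 oligodendrocyte markers, 4 of 5 astrocyte markers, 5 of 6 myelin markers and 7 of 11 fibroblast and meninges markers were higher and none of them lower. Trend-corrected these counts were 5, 4, 4 and 8, again with none lower. Summed oligodendrocyte markers were 209 to 336 CPM in controls and 609 to 1100 after injury. Summed myelin markers were 3185 to 4156 CPM in controls and 6710 to 8513 after injury. Summed astrocyte markers were 21.9 to 38.7 CPM in controls and 109 to 158 after injury, and summed fibroblast and meninges markers 9520 to 10347 CPM in controls and 28033 to 28403 after injury. In each of these sums every injury library lay above every control. No tested marker of these lists was at 0 in an injury library. Of 6 satellite glia markers 2 were higher and 3 lower, with sums of 537 to 669 CPM in controls and 537 to 710 after injury, which overlapped. Trend-corrected 2 were higher and 1 lower, and without 1 of the 6 libraries 1 to 2 rose and 1 to 3 fell. Of 7 macrophage markers 3 were higher and 1 lower, with sums of 121 to 140 CPM in controls and 189 to 224 after injury. Trend-corrected 2 were higher and none lower. Skeletal muscle markers varied most among the controls, with sums of 29.8 to 747 CPM in controls and 218 to 455 after injury, and none of 8 was called, or up to 4 with 1 of the 6 libraries left out. What part these cells had in the results below was not tested.

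**Figure D2:**
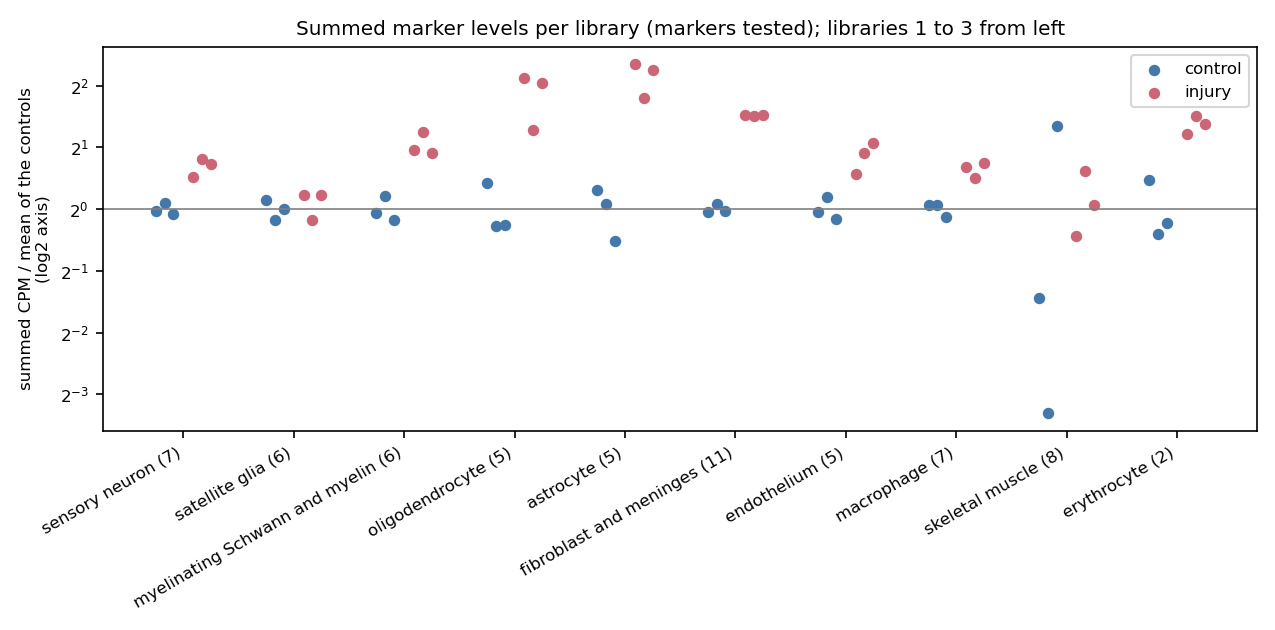
Summed CPM of the tested markers of each cell type in each library, divided by the mean of the 3 controls (y axis, log2 scale), with control libraries in blue and injury libraries in red. Among the cell types shown, sums of all 3 injury libraries lie above all 3 controls for each, sensory neurons included, but satellite glia and muscle. Sums of nociceptor and mechanoreceptor markers, not shown, overlap between the groups. Satellite glia sums overlap, and muscle sums spread most within the controls.

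The largest changes were taken among called genes with a mean of at least 1 CPM and no overlap between the groups. Markers of myelin, glia and meninges and immediate early genes were left out. Non-overlap of these genes was thus set by the rule and is no support. The genes were of mixed function. Among the 12 highest, 7 kept their call when any 1 of the 6 libraries was left out. These were Unc5b, a netrin receptor that steers axons and vessels; Sod3, the extracellular superoxide dismutase; Pltp, which moves phospholipids between lipoproteins; Efnb3, a membrane-bound ephrin ligand; Cx3cl1, the neuronal chemokine read by macrophages; Lrrc4b, a synaptic adhesion protein; and Zbtb7c, a zinc finger repressor. Unc5b (chr10:60762593-60831581, read through 738 exon bases, of which 88 were coding) stood at 13.7, 7.51 and 6.68 CPM in controls and 59.7, 28.3 and 59.7 after injury. Injury libraries 1 and 3 were near each other and library 2 lower (2.40 ± 0.39, adjusted p = 0.00099). Sod3 (chr5:52363791-52371418, 110 non-coding exon bases) stood at 4.43, 4.78 and 6.09 CPM in controls and 23.2, 25.9 and 18.5 after injury. Sod3 rose by the test (2.14 ± 0.31, adjusted p = 0.00047). Efnb3, like Unc5b, was lowest in library 2 among the injury libraries, with 87.2, 40.95 and 40.5 CPM in controls and 295, 146 and 281 after injury, and rose by the test (2.10 ± 0.45, adjusted p = 0.0053) but not once trend-corrected (1.55 ± 0.55, adjusted p = 0.075). Cx3cl1 stood at 17.1, 12.3 and 6.79 CPM in controls and 62.1, 46.5 and 44.7 after injury (2.08 ± 0.44, adjusted p = 0.0037), and Lrrc4b at 50.99, 33.7 and 33.3 CPM in controls and 169.6, 150.2 and 177 after injury (2.07 ± 0.30, adjusted p = 0.00060). Cx3cl1 and Lrrc4b both kept the call trend-corrected. Zbtb7c rose from a lower level, 2.55, 1.48 and 0.703 CPM in controls and 7.88, 11.2 and 6.80 after injury (2.44 ± 0.42, adjusted p = 0.0013), also trend-corrected. The other 5 of the 12 (Dnah12, Olfr1211, Slc30a3, Kcng1 and Notum) had control means of 0.226 to 0.540 CPM, and each lost its call in at least 1 of these 6 leave-out fits, with adjusted p up to 0.139, 0.0577, 0.106, 0.0545 and 0.219.

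Among the 12 lowest, 5 kept their call when any 1 of the 6 libraries was left out: Rock2, Negr1, Shprh, Eno4 and Ttf1. Rock2 is a kinase that contracts the actin cytoskeleton downstream of RhoA, and stood at 4.43, 4.44 and 6.32 CPM in controls and 0.998, 0.637 and 0.972 after injury (-2.53 ± 0.48, adjusted p = 0.0019). Negr1, an adhesion molecule of neurites, stood at 7.87, 10.7 and 11.9 CPM in controls and 0.776, 2.66 and 2.50 after injury (-2.36 ± 0.49, adjusted p = 0.0029). The calls of Rock2 and Negr1 held trend-corrected. Shprh, a ubiquitin ligase of DNA damage tolerance, stood at 8.20, 5.46 and 6.56 CPM in controls and 1.55, 1.06 and 1.80 after injury (-2.20 ± 0.44, adjusted p = 0.0024). Ttf1, which ends transcription of ribosomal RNA genes, stood at 4.21, 4.66 and 3.28 CPM in controls and 1.22, 0.850 and 0.694 after injury (-2.11 ± 0.53, adjusted p = 0.0073), and Eno4, an enolase, at 3.77, 5.69 and 3.98 CPM in controls and 1.44, 0.425 and 1.25 after injury (-2.11 ± 0.54, adjusted p = 0.0085). All 3 calls held trend-corrected. These 5 genes had at most 2.66 CPM in any injury library, so few reads carry the lower group. The remaining 7 (Gorasp2, Usp40, Kcnq1ot1, Prdm15, Dcp2, Notch2 and Map4k3) had injury means of 0.354 to 1.51 CPM and lost the call in at least 1 of these 6 leave-out fits, with adjusted p up to 0.131, 0.0687, 0.133, 0.122, 0.0814, 0.0755 and 0.0504.

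The synaptic release list leaned higher as counted, while the main vesicular glutamate transporter of sensory neurons was lower. Of 36 genes of this list tested, 13 rose, 4 fell and 19 did not pass. The shares were 36.1% higher and 11.1% lower, against 19.5% and 12.6% of all named genes. The median log2 fold change was 0.10 against 0.03 over all named genes. Trend-corrected, 10 rose and 2 fell, and with upper-quartile scaling 8 rose, 6 fell and the median was -0.09. Without 1 of the 6 libraries, 8 to 11 rose and 1 to 4 fell. Slc17a6 encodes VGLUT2, which loads glutamate into vesicles (chr7:51622006-51671119, read through 152 exon bases, of which 150 were coding). It stood at 65.5, 62.3 and 79.3 CPM in controls and 17.3, 16.1 and 26.1 after injury. The injury libraries lay far below the controls without overlap, and Slc17a6 fell (-1.80 ± 0.28, adjusted p = 0.00090), also trend-corrected (-1.44 ± 0.25, adjusted p = 0.0021). Its relative Slc17a7, VGLUT1, went the other way, 88.7, 78.04 and 80.9 CPM in controls and 95.3, 155 and 125 after injury (0.60 ± 0.18, adjusted p = 0.017). It was named after its value was seen, and its call was lost trend-corrected (0.05 ± 0.13, adjusted p = 0.82) and without control library 2 or 3 or injury library 2 (adjusted p up to 0.114). Among the risers with the smallest p were Syngr2, Sv2a and Stx4a. Sv2a, a synaptic vesicle glycoprotein, stood at 83.5, 68.3 and 57.2 CPM in controls and 159, 121 and 182 after injury (1.14 ± 0.21, adjusted p = 0.0015), and the vesicle protein Syngr2 at 10.4, 8.99 and 8.55 CPM in controls and 24.4, 21.4 and 24.2 after injury (1.32 ± 0.20, adjusted p = 0.00074). The plasma membrane syntaxin Stx4a also rose (0.82 ± 0.16, adjusted p = 0.0024). All 3 kept their call trend-corrected. After Slc17a6, the fallers were Rab3c (-0.78 ± 0.21, adjusted p = 0.0098), Cadps2 (-0.44 ± 0.13, adjusted p = 0.018) and Stx7 (-0.35 ± 0.13, adjusted p = 0.041), and none of these 3 kept the call trend-corrected or in all 6 leave-out fits (adjusted p up to 0.064, 0.103 and 0.123). The scaffold Ppfia3, the member with the highest CPM among those that did not pass, stood at 97.7, 109.7 and 77.3 CPM in controls and 103, 117 and 104 after injury, with overlapping groups (0.19 ± 0.15, adjusted p = 0.37).

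**Figure D3:**
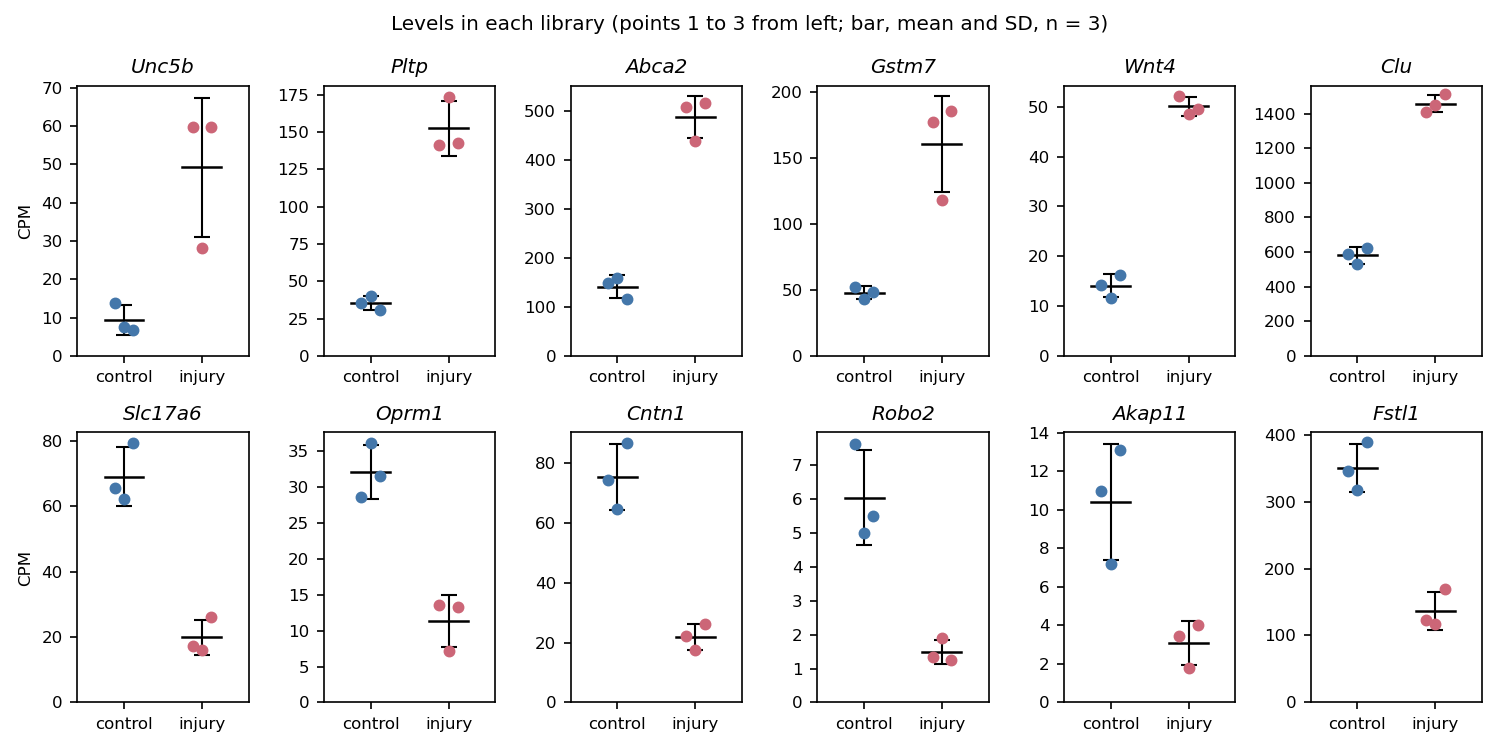
CPM (y axes, each from 0) in each control (blue) and injury (red) library for 12 genes, with the mean and SD of 3 libraries. In all 12 panels the injury libraries do not overlap the controls, with Unc5b, Pltp, Abca2, Gstm7, Wnt4 and Clu higher and Slc17a6, Oprm1, Cntn1, Robo2, Akap11 and Fstl1 lower after injury. For Unc5b and Pltp non-overlap was set by the rule that picked them. The other genes were called and named by small p, which favours non-overlap, so it is no further support for them. Of all named genes 53.4% had no overlap.

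Of 31 neuropeptides and G protein-coupled receptors tested, 7 rose and 4 fell, so that 35.5% were called against 32.1% of all named genes. Trend-corrected 2 rose and 2 fell, with upper-quartile scaling 4 rose and 6 fell, and without 1 of the 6 libraries 4 to 6 rose and 2 to 4 fell. Oprm1, the mu opioid receptor and the target of buprenorphine, was counted under its own identifier (206 non-coding exon bases on chromosome 10) and stood at 28.6, 36.2 and 31.6 CPM in controls and 13.5, 7.22 and 13.3 after injury. The groups did not overlap, and Oprm1 fell (-1.50 ± 0.36, adjusted p = 0.0059), also trend-corrected (-1.57 ± 0.41, adjusted p = 0.016). Cnr1, the cannabinoid receptor of nerve terminals, fell by less, from 189, 178 and 229 CPM in controls and 115, 107 and 142 after injury (-0.71 ± 0.15, adjusted p = 0.0033), and lost the call trend-corrected (-0.23 ± 0.13, adjusted p = 0.20). Pam, which amidates neuropeptides, stood at 39.2, 35.3 and 33.5 CPM in controls and 20.3, 12.3 and 23.6 after injury (-0.95 ± 0.25, adjusted p = 0.010) and lost its call without injury library 2 (adjusted p = 0.0648). Gpr139 also fell (-0.62 ± 0.19, adjusted p = 0.021), and lost the call in 4 of 6 leave-out fits (adjusted p up to 0.0938) and trend-corrected. The riser with the smallest p was Gpr37, which is also on the oligodendrocyte list, at 161, 96.7 and 95.5 CPM in controls and 519, 279 and 506 after injury (1.88 ± 0.31, adjusted p = 0.0010). The lysophosphatidic acid receptor Lpar1 rose (0.52 ± 0.14, adjusted p = 0.0090), also trend-corrected, and the nucleotide receptor P2ry2 (0.95 ± 0.23, adjusted p = 0.0058) and Gpr3 (1.09 ± 0.30, adjusted p = 0.013) rose without keeping the call trend-corrected, and Gpr3 also lost it without control library 2 or injury library 1 (adjusted p up to 0.0669). The substance P precursor Tac1 was the uncalled member with the highest CPM, 859.9, 735 and 867 CPM in controls and 764, 833 and 809.8 after injury, and its groups overlapped (-0.03 ± 0.18, adjusted p = 0.91). Among 24 receptors and scaffolds of glutamate, GABA, glycine and acetylcholine, 2 rose and 3 fell (20.8% called; trend-corrected 1 and 1), and without 1 of the 6 libraries 0 to 1 rose and 1 to 3 fell. The AMPA receptor subunits Gria3 (-0.72 ± 0.18, adjusted p = 0.0063) and Gria2 (-1.48 ± 0.41, adjusted p = 0.012) and the NMDA receptor subunit Grin1 (-0.61 ± 0.20, adjusted p = 0.025) fell. Of these, Grin1 alone stayed called trend-corrected (-1.03 ± 0.21, adjusted p = 0.0043), while it lost its call in 4 of 6 leave-out fits (adjusted p up to 0.134) and Gria2 without control library 3 (adjusted p = 0.0738). The postsynaptic scaffolds Dlg4 (0.63 ± 0.19, adjusted p = 0.021) and Shank1 (0.91 ± 0.30, adjusted p = 0.032) rose; leaving out control library 3 or injury library 2 ended the call of Dlg4 (adjusted p up to 0.103), and leaving out any 1 of the 6 ended that of Shank1 (adjusted p up to 0.106).

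Of 30 potassium and HCN channel genes 5 rose and 3 fell (trend-corrected 4 and 3), and of 32 sodium, calcium, chloride and TRP channel genes 5 rose and 5 fell (trend-corrected 4 and 6), so that 26.7% and 31.3% were called against 32.1% of all named genes. For the first list, without 1 of the 6 libraries 3 to 4 rose and 0 to 2 fell. For the second, without 1 of the 6 libraries 3 to 4 rose and 2 to 4 fell. Hcn2, a pacemaker channel of sensory neurons, stood at 61.6, 63.02 and 68.05 CPM in controls and 134, 119 and 163 after injury (1.11 ± 0.16, adjusted p = 0.00049). Kcnab2, a beta subunit of voltage-gated potassium channels, stood at 928, 1024 and 830.3 CPM in controls and 1531, 1859.9 and 1738 after injury (0.88 ± 0.20, adjusted p = 0.0043). Both were higher in each injury library than in any control and kept the call trend-corrected. Kcnj10, the inward rectifier of satellite glia that is also found in astrocytes and oligodendrocytes, stood at 92.01, 63.2 and 51.3 CPM in controls and 231, 162 and 251 after injury (1.64 ± 0.30, adjusted p = 0.0019), with injury library 2 lowest of its group, as in the oligodendrocyte sum. The sodium-activated channel Kcnt1 (-1.08 ± 0.33, adjusted p = 0.020) and the ERG-type channel Kcnh6 (-1.12 ± 0.38, adjusted p = 0.036) fell, also trend-corrected, but lost the call in 4 and 5 of 6 leave-out fits (adjusted p up to 0.108 and 0.218). Kcnq1ot1, which the list took in by its name, is a long noncoding RNA and no channel. The acid-sensing channel Asic1 stood at 15.96, 17.6 and 20.1 CPM in controls and 32.2, 45.7 and 43.7 after injury (1.18 ± 0.25, adjusted p = 0.0030), and the AMPA receptor auxiliary subunit Cacng8 (1.71 ± 0.41, adjusted p = 0.0056) and the calcium-activated cation channel Trpm4 (0.79 ± 0.20, adjusted p = 0.0083) also rose, of which Asic1 kept the call trend-corrected. The cation channel Trpc6 was counted over its own gene (5053 exon bases) and stood at 66.3, 82.4 and 70.6 CPM in controls and 36.5, 39.4 and 44.2 after injury (-0.87 ± 0.15, adjusted p = 0.0012). The chloride channel relative Ano3 stood at 32.4, 31.7 and 30.6 CPM in controls and 12.98, 7.01 and 13.5 after injury (-1.51 ± 0.26, adjusted p = 0.0012). For both genes each injury library lay below each control, and both calls held trend-corrected and in all 6 leave-out fits. Unc79, a subunit of the sodium leak channel complex, fell (-1.02 ± 0.35, adjusted p = 0.034) and lost the call in 5 of 6 leave-out fits (adjusted p up to 0.126). The nociceptor genes P2rx3 (-0.56 ± 0.17, adjusted p = 0.021) and Scn11a (0.69 ± 0.21, adjusted p = 0.018) were called lower and higher, each in 3 or fewer of 6 leave-out fits (adjusted p up to 0.106 and 0.101). Trend-corrected both calls held (-0.90 ± 0.19, adjusted p = 0.0054, and 1.02 ± 0.24, adjusted p = 0.0088), while Scn11a was not called with upper-quartile scaling (adjusted p = 0.057).

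Genes of second messenger signalling leaned lower. They carry signals from G proteins through cyclic nucleotides and lipids to protein kinases A and C. Of 49 tested, 5 rose and 15 fell (10.2% and 30.6%, against 19.5% and 12.6% of all named genes), with a median log2 fold change of -0.52. Trend-corrected 3 rose and 10 fell with a median of -0.33, with upper-quartile scaling 4 rose and 20 fell, and without 1 of the 6 libraries 4 to 5 rose and 8 to 12 fell. Akap11, an anchor of protein kinase A, stood at 10.97, 7.17 and 13.1 CPM in controls and 3.44, 1.81 and 4.03 after injury (-1.76 ± 0.33, adjusted p = 0.0019). Pde3b, which breaks down cyclic nucleotides, stood at 4.43, 7.05 and 5.15 CPM in controls and 1.22, 0.744 and 1.94 after injury (-2.10 ± 0.44, adjusted p = 0.0029). Rapgef5, an exchange factor of Rap GTPases, stood at 10.2, 5.80 and 11.8 CPM in controls and 1.77, 1.49 and 3.47 after injury (-2.06 ± 0.41, adjusted p = 0.0023), and the phospholipase Plcb4 at 6.43, 7.28 and 5.15 CPM in controls and 1.44, 0.850 and 2.92 after injury (-1.88 ± 0.41, adjusted p = 0.0037). All 4 genes were lower in each injury library than in any control, and all 4 calls held trend-corrected and in the 6 leave-out fits. The risers were G protein and phospholipase genes: Gna11 (0.97 ± 0.16, adjusted p = 0.00099), Gng11 (1.32 ± 0.22, adjusted p = 0.0012), Gnb2 (0.97 ± 0.21, adjusted p = 0.0032) and Plcb3 (0.94 ± 0.21, adjusted p = 0.0045), and the kinase Prkcd (0.58 ± 0.19, adjusted p = 0.029). Gna11, Gng11 and Plcb3 kept the call trend-corrected, and Prkcd lost it in 4 of 6 leave-out fits (adjusted p up to 0.133). Gnb1 was the uncalled member with the highest CPM, 280.0, 304 and 285 CPM in controls and 276, 272 and 269.5 after injury (-0.09 ± 0.14, adjusted p = 0.65). Calcium pumps, stores and calcium-dependent kinases leaned the same way, 4 higher and 7 lower of 27, but 3 and 2 once trend-corrected, and without 1 of the 6 libraries 2 to 3 rose and 1 to 4 fell. The plasma membrane calcium pumps split: Atp2b4 rose (0.61 ± 0.16, adjusted p = 0.0078) and Atp2b1 fell (-0.94 ± 0.20, adjusted p = 0.0031), and trend-corrected the call of Atp2b4 held (1.14 ± 0.20, adjusted p = 0.0019) and that of Atp2b1 did not (-0.33 ± 0.14, adjusted p = 0.10).

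Axon guidance and adhesion genes held some of the largest changes, though the share of guidance genes called was near that of all named genes. Of 33 guidance genes 8 rose and 3 fell (trend-corrected 5 and 1), so that 33.3% were called against 32.1% of all named genes. Their median was 0.43 (trend-corrected 0.13), and without 1 of the 6 libraries 5 to 7 rose and 1 to 3 fell. Beside Unc5b, the risers with the smallest p were Rtn4rl2, a receptor of myelin-derived growth inhibitors, at 42.1, 43.8 and 40.3 CPM in controls and 84.4, 117 and 107 after injury (1.29 ± 0.21, adjusted p = 0.00099), and the ephrin receptor Ephb4 at 11.9, 16.9 and 12.1 CPM in controls and 30.8, 38.5 and 27.5 after injury (1.24 ± 0.20, adjusted p = 0.00099). Sema6a, a transmembrane semaphorin, stood at 4.77, 5.12 and 3.75 CPM in controls and 10.9, 14.6 and 15.3 after injury (1.57 ± 0.31, adjusted p = 0.0023). All 3 kept the call trend-corrected. Robo2, the Slit receptor (chr16:73891839-74411825, read through 162 exon bases, of which 121 were coding), stood at 7.65, 5.01 and 5.50 CPM in controls and 1.33, 1.91 and 1.25 after injury (-1.995 ± 0.42, adjusted p = 0.0029). Every injury library was below every control, and the call held trend-corrected (-1.32 ± 0.36, adjusted p = 0.017). Rtn4, which encodes Nogo, and the ephrin receptor Epha7 were also called lower, but each in at most 1 of 6 leave-out fits (adjusted p up to 0.141 and 0.122), and trend-corrected neither was called and the value of Epha7 was above 0 (0.13 ± 0.16, adjusted p = 0.59). Of 44 adhesion genes 9 rose and 12 fell, so that 47.7% were called against 32.1% of all named genes. The lower share was 27.3% against 12.6%. Trend-corrected 9 rose and 6 fell, and without 1 of the 6 libraries 7 to 8 rose and 7 to 11 fell. Cntn1, a contactin of axons and of the node of Ranvier (chr15:92051165-92341967, read through 150 coding bases), stood at 74.4, 64.8 and 86.9 CPM in controls and 22.3, 17.4 and 26.1 after injury (-1.78 ± 0.36, adjusted p = 0.0029). Cdh19, a cadherin of satellite glia and Schwann cells, stood at 53.7, 56.99 and 54.3 CPM in controls and 26.4, 24.9 and 24.7 after injury (-1.12 ± 0.24, adjusted p = 0.0030). Chl1, a relative of L1, stood at 48.3, 49.7 and 56.5 CPM in controls and 29.1, 29.6 and 29.7 after injury (-0.80 ± 0.15, adjusted p = 0.0016). Cntn1 and Cdh19 kept the call trend-corrected, as Negr1 did, and Chl1 did not (-0.11 ± 0.15, adjusted p = 0.62). Besides Lrrc4b, the risers with the smallest p were Lgi3 (1.06 ± 0.21, adjusted p = 0.0024), Cdh1, which encodes E-cadherin (0.73 ± 0.16, adjusted p = 0.0032), and Adgrb2 (1.63 ± 0.36, adjusted p = 0.0037), all 3 also trend-corrected. The uncalled member with the highest CPM was Opcml, at 102, 103 and 122 CPM in controls and 122, 119 and 119 after injury (0.13 ± 0.13, adjusted p = 0.48).

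Of 20 Wnt pathway genes 6 rose and 1 fell, 35.0% called against 32.1% of all named genes (trend-corrected 5 and 1; upper-quartile 5 and 1), with a median of 0.35 (trend-corrected 0.38). The ligand Wnt4 (chr4:137277489-137299726, read through 1664 exon bases, of which 497 were coding) stood at 14.2, 11.7 and 16.3 CPM in controls and 52.1, 48.5 and 49.6 after injury. The 3 injury libraries lay close together and all above the controls (1.83 ± 0.22, adjusted p = 0.00016), and the call held trend-corrected (1.51 ± 0.21, adjusted p = 0.00051). Wnt6 stood at 28.4, 28.2 and 19.9 CPM in controls and 68.2, 96.7 and 62.5 after injury (1.57 ± 0.23, adjusted p = 0.00055), and Vangl1, of the planar cell polarity branch, at 8.09, 7.28 and 5.97 CPM in controls and 15.4, 19.5 and 13.9 after injury (1.19 ± 0.24, adjusted p = 0.0026). The nuclear co-activator Bcl9l also rose (0.88 ± 0.21, adjusted p = 0.0052), and these calls of Wnt6, Vangl1 and Bcl9l held trend-corrected. The destruction complex gene Apc2 fell (-0.998 ± 0.30, adjusted p = 0.018), and lost the call without control library 1, injury library 1 or injury library 2 (adjusted p up to 0.0829). Of 31 growth factor and receptor tyrosine kinase genes 6 rose and 3 fell, 29.0% called against 32.1% of all named genes, with a median of -0.23. Trend-corrected 2 rose and 2 fell with a median of -0.03, and without 1 of the 6 libraries 3 to 5 rose and 1 to 2 fell. Igfbp4, which binds insulin-like growth factors, stood at 185, 212 and 141 CPM in controls and 451, 464 and 355 after injury (1.24 ± 0.20, adjusted p = 0.00099). Cntfr, the receptor of ciliary neurotrophic factor, stood at 229, 223 and 205 CPM in controls and 509, 564 and 531 after injury (1.29 ± 0.22, adjusted p = 0.0012). The ligand Hgf fell (-1.54 ± 0.38, adjusted p = 0.0069). Fstl1, a secreted follistatin relative (chr16:37776873-37836514, read through 353 exon bases, of which 119 were coding), stood at 345, 318 and 389 CPM in controls and 123.3, 117 and 169 after injury (-1.36 ± 0.29, adjusted p = 0.0030). These 4 calls held trend-corrected and in all 6 leave-out fits. Of 12 TGF-beta and BMP genes 5 rose and 2 fell, the riser with the smallest p being Ltbp4, which binds latent TGF-beta in the matrix, at 33.5, 29.2 and 25.4 CPM in controls and 81.2, 67.3 and 76.5 after injury (1.35 ± 0.16, adjusted p = 0.00016); trend-corrected 2 rose and 2 fell.

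Lipid genes leaned higher. Of 37 genes of fatty acid and sphingolipid metabolism 15 rose and 3 fell (40.5% and 8.1%), with a median of 0.36. Trend-corrected 11 rose and 2 fell with a median of 0.09 (0.04 over all named genes), with upper-quartile scaling 13 rose and 9 fell with a median of 0.17, and without 1 of the 6 libraries 14 to 15 rose and 1 to 2 fell. None of the 37 is on the marker lists of myelin, glia or meninges, but these lists moved with them, and myelin is rich in the same lipids. Abca2, a lipid transporter of lysosomes that is abundant in myelinating cells, stood at 149.7, 160.1 and 115 CPM in controls and 508, 439 and 517 after injury (1.78 ± 0.20, adjusted p = 0.00014). Plin3, a coat protein of lipid droplets, stood at 100.1, 92.3 and 75.2 CPM in controls and 262, 216 and 228 after injury (1.40 ± 0.16, adjusted p = 0.00014). Pltp (chr2:164839518-164857711, read through 329 coding bases) stood at 35.4, 40.2 and 30.5 CPM in controls and 141, 174 and 143 after injury (2.11 ± 0.25, adjusted p = 0.00016). Acaca, which makes malonyl-CoA for fatty acid synthesis, stood at 52.1, 66.4 and 48.4 CPM in controls and 126, 127 and 121 after injury (1.16 ± 0.18, adjusted p = 0.00091). All injury libraries of the 4 genes were above all controls, which for Pltp was set by the rule that picked it. All 4 calls held trend-corrected and in the 6 leave-out fits. Acadl, of fatty acid oxidation, rose (0.64 ± 0.14, adjusted p = 0.0033), as did Elovl6, of fatty acid elongation (0.79 ± 0.18, adjusted p = 0.0045), and Cers2, of ceramide synthesis (0.74 ± 0.15, adjusted p = 0.0028), all 3 also trend-corrected and named after their values were seen. The cholesterol exporter Abca1 fell, from 302, 309.9 and 294 CPM in controls and 198, 182 and 179 after injury (-0.70 ± 0.15, adjusted p = 0.0033), and not trend-corrected (-0.18 ± 0.11, adjusted p = 0.22). The uncalled desaturase Scd1 stood at 813, 798 and 689.6 CPM in controls and 1060.3, 847 and 1038 after injury (0.36 ± 0.14, adjusted p = 0.065).

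Lysosomal genes leaned higher and autophagy genes lower. Of 28 lysosome genes 9 rose and 1 fell (32.1% and 3.6%), with a median of 0.43. Trend-corrected 8 rose and none fell with a median of 0.26, with upper-quartile scaling 8 rose and 3 fell, and without 1 of the 6 libraries 8 to 10 rose. Grn, which encodes progranulin, stood at 32.1, 39.5 and 24.1 CPM in controls and 101.4, 94.96 and 71.6 after injury (1.49 ± 0.24, adjusted p = 0.00098). The cathepsins Ctsz (1.04 ± 0.18, adjusted p = 0.0012) and Ctss (0.92 ± 0.19, adjusted p = 0.0029) rose, and Ctss is also on the macrophage list, whose sums moved with it. Tfe3, a transcription factor that binds E-boxes (CACGTG) in lysosomal promoters, stood at 89.5, 92.8 and 72.97 CPM in controls and 165, 173 and 162 after injury (0.97 ± 0.18, adjusted p = 0.0017). These 4 calls held trend-corrected. Tmem106b, a membrane protein of lysosomes, fell (-0.53 ± 0.14, adjusted p = 0.011), but its value was above 0 trend-corrected (0.11 ± 0.11, adjusted p = 0.46), and it was not called without injury library 3 (adjusted p = 0.052). Of 21 autophagy genes 4 rose and 8 fell, so that 57.1% were called against 32.1% of all named genes. Trend-corrected 3 rose and 4 fell, and without 1 of the 6 libraries 2 to 3 rose and 2 to 6 fell. Trp53inp2, which brings autophagy proteins to membranes, stood at 132, 94.99 and 83.9 CPM in controls and 306, 178 and 245 after injury (1.23 ± 0.20, adjusted p = 0.00099), with injury library 2 lowest of its group. The fallers with the smallest p were Trp53inp1 (-0.65 ± 0.16, adjusted p = 0.0056), Pik3r4, a subunit of the VPS34 lipid kinase complex (-0.79 ± 0.23, adjusted p = 0.015), and the starting kinase Ulk2 (-0.64 ± 0.18, adjusted p = 0.015). Of these, Pik3r4 kept the call trend-corrected, while it was lost in 3 of 6 leave-out fits (adjusted p up to 0.0621), and Ulk2 lost it without injury library 2 (adjusted p = 0.0819).

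Promoter sequences from RefSeq (GRCm38.p6, 250 bases before to 50 after a start) were matched by symbol to 21 of the 28 lysosome genes and to 3567 of the tested named genes. The E-box CACGTG, which reads the same on both strands, was in the promoter of 7 of the 21 lysosome genes (33.3%), against 10.7% of all 3567, 10.6% of 738 genes called higher and 14.6% of 458 called lower. The cyclic AMP response element TGACGTCA, on either strand, was in 3.52% of higher, 2.84% of lower and 3.48% of all, and the heat shock element GAANNTTC, on either strand, in 5.83%, 7.86% and 7.20%. The 120 bases before the start of the 3 called lysosome genes with an E-box there are shown because they are the called members that hold this motif, with each CACGTG in capitals. A match is a description of the letters and not a site.
Mcoln1 (chr8:3500399-3500518, forward strand, 5′ to 3′): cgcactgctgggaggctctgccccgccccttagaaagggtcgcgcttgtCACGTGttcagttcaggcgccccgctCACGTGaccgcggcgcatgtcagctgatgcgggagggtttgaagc
Arsa (chr15:89477425-89477544, reverse strand, 5′ to 3′): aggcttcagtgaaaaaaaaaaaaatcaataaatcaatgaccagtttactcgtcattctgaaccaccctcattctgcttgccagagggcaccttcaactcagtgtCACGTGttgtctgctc
Ctsf (chr19:4855045-4855164, forward strand, 5′ to 3′): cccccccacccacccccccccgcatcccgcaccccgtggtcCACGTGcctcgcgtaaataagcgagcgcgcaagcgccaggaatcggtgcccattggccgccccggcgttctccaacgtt
Mcoln1 (a calcium channel of lysosomes) stood at 35.7, 42.1 and 32.4 CPM in controls and 54.5, 52.5 and 47.3 after injury (0.49 ± 0.17, adjusted p = 0.042). Arsa, arylsulfatase A, stood at 16.9, 15.8 and 13.9 CPM in controls and 21.2, 26.4 and 25.8 after injury (0.66 ± 0.17, adjusted p = 0.0075), and Ctsf, cathepsin F, at 28.8, 24.8 and 26.001 CPM in controls and 36.4, 46.3 and 45.96 after injury (0.69 ± 0.17, adjusted p = 0.0072). All 3 were named after their values and promoters were seen, none of the 3 kept its call trend-corrected, and Mcoln1 lost it in 5 of 6 leave-out fits (adjusted p up to 0.152).

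Of 100 vesicle traffic genes tested, 27 rose and 18 fell, against 19.5% higher and 12.6% lower of all named genes. Trend-corrected 22 rose and 7 fell, whereas with upper-quartile scaling 12 rose and 25 fell, so the balance of this list followed the scaling. Leaving out libraries moved it too: without 1 of the 6 libraries 12 to 23 rose and 6 to 13 fell, the fewest without injury library 2. The risers with the smallest p were Dnm2, the dynamin that cuts endocytic vesicles (0.96 ± 0.15, adjusted p = 0.00081), Trappc10 (0.83 ± 0.13, adjusted p = 0.00099), Vps52 (1.15 ± 0.19, adjusted p = 0.00099) and the COPII coat gene Sec31a (0.96 ± 0.17, adjusted p = 0.0013). The fallers were Tbc1d15 (-1.45 ± 0.24, adjusted p = 0.00099), Snx13 (-1.86 ± 0.37, adjusted p = 0.0024), Rabgap1l (-1.76 ± 0.36, adjusted p = 0.0028) and Vps50 (-0.60 ± 0.13, adjusted p = 0.0042). Of these 8 genes, 7 kept the call trend-corrected, and Vps50 did not (-0.02 ± 0.11, adjusted p = 0.92).

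Antioxidant genes leaned higher, glutathione transferases among them. Of 25 tested, 9 rose and 3 fell, with a median of 0.49. Trend-corrected 10 rose and 1 fell with a median of 0.36, upper-quartile scaling gave 9 and 3, and without 1 of the 6 libraries 7 to 10 rose. Gstm7 stood at 52.5, 42.8 and 48.3 CPM in controls and 177, 118 and 185 after injury (1.74 ± 0.21, adjusted p = 0.00017), with injury library 2 lowest of its group. Gstm2 stood at 49.7, 48.7 and 55.5 CPM in controls and 122.9, 121 and 126 after injury (1.27 ± 0.20, adjusted p = 0.00090) and Gstp1 at 103, 131 and 133 CPM in controls and 276, 295 and 298 after injury (1.24 ± 0.21, adjusted p = 0.0012). Each injury library was above each control for all 3 genes, and for Sod3 by the rule that picked it. The 4 calls held trend-corrected. The Gstm and Gstp genes have near-identical copies between which reads can be split, so which member rose is uncertain. Gclc, the rate-limiting subunit of glutathione synthesis, fell (-1.10 ± 0.31, adjusted p = 0.013), and the call was lost without control library 1 or injury library 2 (adjusted p up to 0.0702). The iron import receptor Tfrc (-0.83 ± 0.20, adjusted p = 0.0059) and Selenoi (-0.96 ± 0.19, adjusted p = 0.0023) fell, and neither kept the call trend-corrected. Thioredoxin, Txn1, was the uncalled member with the highest CPM, 979, 1077 and 1026 CPM in controls and 1159.5, 1215 and 1128 after injury (0.18 ± 0.17, adjusted p = 0.44). Of 13 genes of protein folding and stress in the endoplasmic reticulum 5 rose and 1 fell (trend-corrected 4 and 0). Pdia4, a disulfide isomerase, stood at 140.1, 143 and 138 CPM in controls and 225, 219 and 192 after injury (0.60 ± 0.15, adjusted p = 0.0066), and Nupr1, a stress-induced regulator, at 47.2, 47.8 and 36.5 CPM in controls and 86.7, 75.1 and 77.9 after injury (0.87 ± 0.22, adjusted p = 0.0086). Both kept the call trend-corrected. Metallothionein Mt3, a zinc-binding protein of neural tissue, stood at 296, 320.2 and 320.1 CPM in controls and 751, 763 and 736 after injury (1.27 ± 0.24, adjusted p = 0.0020), also called trend-corrected.

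Energy metabolism and proteasome lists leaned higher as counted, and much of that lean was gone trend-corrected. Of 22 nuclear respiratory chain genes 8 rose and 1 fell, and 3 and 0 trend-corrected, and without 1 of the 6 libraries 4 to 7 rose and 0 to 1 fell. Of 20 glycolysis genes 6 rose and 3 fell, and 2 and 2 trend-corrected, and without 1 of the 6 libraries 4 to 7 rose and 0 to 2 fell. Of 9 proteasome genes 6 rose and 2 fell, and 1 and 0 trend-corrected, and without 1 of the 6 libraries 3 rose and 0 to 1 fell. Among the members that held were Pdk2, a kinase that restrains pyruvate entry into mitochondria, at 51.9, 51.9 and 43.3 CPM in controls and 157, 163 and 158 after injury (1.70 ± 0.20, adjusted p = 0.00015), the complex III subunit Uqcrc1 at 460.5, 482 and 466 CPM in controls and 883, 1037 and 944 after injury (1.02 ± 0.22, adjusted p = 0.0031), Ndufa10 of complex I (0.99 ± 0.23, adjusted p = 0.0048) and the proteasome lid subunit Psmd3 at 131, 169.6 and 126 CPM in controls and 286, 348 and 311 after injury (1.14 ± 0.21, adjusted p = 0.0015). In the citric acid cycle Ogdh stood at 399, 419 and 336 CPM in controls and 658, 732 and 722 after injury (0.87 ± 0.16, adjusted p = 0.0017) and kept the call trend-corrected, as part of 5 risers and 2 fallers of 18. Trend-corrected 4 rose and none fell, upper-quartile scaling gave 2 and 2, and without 1 of the 6 libraries 2 to 4 rose and 1 to 2 fell, the fewest risers without injury library 2. None of the 5 genes encoded by mitochondrial DNA that were tested was called. The share of all counts on mitochondrial intervals was 28.7%, 22.8% and 28.2% in controls and 20.4%, 19.8% and 22.6% after injury, without overlap. With mitochondrial intervals left out of the fit, an alternative chosen after seeing the data, 1538 named genes were called in place of 1533.

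Complement genes leaned higher. Of 15 genes of complement and coagulation 6 rose and 1 fell, with a median of 0.72; the counts were the same trend-corrected and with upper-quartile scaling, and without 1 of the 6 libraries 5 to 6 rose. Clu, clusterin, a secreted chaperone that restrains the membrane attack complex (chr14:65968483-65981547, read through 659 exon bases, of which 264 were coding), stood at 588, 531 and 626 CPM in controls and 1411, 1451 and 1511 after injury. The 3 injury libraries were close together and far above the highest control (1.32 ± 0.19, adjusted p = 0.00055), also trend-corrected (0.75 ± 0.12, adjusted p = 0.00094). C1qc, which microglia and macrophages make, stood at 21.9, 21.2 and 20.4 CPM in controls and 46.4, 44.8 and 52.8 after injury (1.18 ± 0.18, adjusted p = 0.00063), C4b at 60.1, 57.9 and 42.3 CPM in controls and 102, 101.1 and 90.5 after injury (0.88 ± 0.20, adjusted p = 0.0045), and Serpine2, an inhibitor of thrombin made by glia, at 209, 188 and 226 CPM in controls and 351, 367 and 339 after injury (0.76 ± 0.17, adjusted p = 0.0044). The 4 calls held trend-corrected. A2m was the faller (-1.09 ± 0.34, adjusted p = 0.023), in 1 of 6 leave-out fits (adjusted p up to 0.113). Of 21 antigen presentation genes 13 rose and 1 fell (61.9% and 4.8%), but trend-corrected 3 rose and 1 fell, and without 1 of the 6 libraries 6 to 10 rose and 1 to 2 fell. Those 3 were Tap2, the peptide transporter of the endoplasmic reticulum, at 20.5, 17.1 and 12.8 CPM in controls and 50.4, 47.2 and 32.8 after injury (1.37 ± 0.23, adjusted p = 0.0012), Ctss, and H2-Eb1, a class II chain, at 26.8, 35.9 and 28.8 CPM in controls and 62.1, 54.1 and 45.3 after injury (0.82 ± 0.18, adjusted p = 0.0036), and H2 genes share reads with near-identical copies. Erap1, which trims peptides, fell (-1.95 ± 0.44, adjusted p = 0.0042), also trend-corrected (-1.39 ± 0.40, adjusted p = 0.021). Of 33 cytokine, chemokine and NF-kappaB genes 3 rose and 3 fell, below the 32.1% called over all named genes. Beside Cx3cl1, the receptor Tnfrsf1a rose (1.09 ± 0.19, adjusted p = 0.0013), also trend-corrected.

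Matrix genes leaned higher. Of 67 genes of the matrix and its proteases 19 rose and 3 fell (28.4% and 4.5%). Trend-corrected 15 rose and 3 fell, with upper-quartile scaling 16 and 7 and a median of -0.09 in place of 0.09, and without 1 of the 6 libraries 11 to 17 rose, the fewest without control library 3. Of the 67, 5 are on the fibroblast and meninges list, of which 3 rose. Adamts2, which trims procollagen, stood at 15.4, 14.4 and 11.4 CPM in controls and 46.6, 37.3 and 32.4 after injury (1.50 ± 0.21, adjusted p = 0.00046), and the collagen lysyl hydroxylase Plod1 at 86.9, 84.98 and 60.6 CPM in controls and 192, 213 and 178 after injury (1.32 ± 0.19, adjusted p = 0.00046). Adamtsl4, of the fibrillin microfibrils, also rose (1.13 ± 0.19, adjusted p = 0.0012). Col28a1, a collagen of peripheral glia, went down, from 358, 317 and 358 CPM in controls and 208, 209 and 204 after injury (-0.74 ± 0.15, adjusted p = 0.0027). These 4 calls held trend-corrected and in all 6 leave-out fits, and the fibroblast and meninges sums given above moved with the risers. Of 24 integrin and focal adhesion genes 7 rose and 1 fell (trend-corrected 6 and 1), whereas with upper-quartile scaling 7 rose and 8 fell. Itgb4, the laminin-binding integrin of Schwann cells and epithelia, stood at 27.5, 29.7 and 17.8 CPM in controls and 59.7, 64.2 and 67.6 after injury (1.35 ± 0.19, adjusted p = 0.00036), and Zyx, zyxin, at 124, 111 and 117 CPM in controls and 264, 284 and 282 after injury (1.24 ± 0.19, adjusted p = 0.00090). The filamin Flnc rose (0.90 ± 0.16, adjusted p = 0.0013), and the integrin Itgav fell (-0.84 ± 0.22, adjusted p = 0.0093), without keeping the call trend-corrected or without injury library 2 (adjusted p = 0.0535).

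Of 98 solute carriers 20 rose and 11 fell (20.4% and 11.2%), near the shares over all named genes. Trend-corrected 19 rose and 6 fell, with upper-quartile scaling 12 rose and 16 fell, so the balance followed the scaling, and without 1 of the 6 libraries 13 to 16 rose and 6 to 8 fell. Of the 98, 5 are on the astrocyte or meninges lists, and the 2 risers with the smallest p, Slc6a13 and Slc14a1, are among them. Outside those lists, Slc38a10 (0.79 ± 0.13, adjusted p = 0.0011) and the biotin and pantothenate carrier Slc5a6 (1.21 ± 0.23, adjusted p = 0.0019) rose. Beside Slc17a6, the amino acid carrier Slc6a15 stood at 103, 99.5 and 104 CPM in controls and 56.6, 59.5 and 69.4 after injury (-0.72 ± 0.13, adjusted p = 0.0015), Slc9a7, a proton exchanger of the Golgi, at 6.10, 6.48 and 7.38 CPM in controls and 2.33, 1.70 and 2.78 after injury (-1.56 ± 0.35, adjusted p = 0.0039), and the mitochondrial carrier Slc25a30 at 10.1, 9.78 and 14.4 CPM in controls and 3.33, 1.27 and 4.44 after injury (-1.94 ± 0.43, adjusted p = 0.0040). These 5 calls held trend-corrected and in all 6 leave-out fits.

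Lists of transcription, chromatin and RNA processing are set beside the 19.5% higher and 12.6% lower of all named genes. Of 132 Zfp zinc finger genes 12 rose and 24 fell (9.1% and 18.2%). Trend-corrected 14 rose and 9 fell, upper-quartile scaling gave 5 and 39, and without 1 of the 6 libraries 6 to 9 rose and 11 to 18 fell. Zfp536, a repressor of neuronal differentiation, stood at 24.5, 23.8 and 14.4 CPM in controls and 53.1, 60.02 and 53.7 after injury (1.41 ± 0.20, adjusted p = 0.00050), and Zfp60 at 57.4, 49.1 and 59.97 CPM in controls and 16.97, 20.1 and 25.3 after injury (-1.42 ± 0.26, adjusted p = 0.0016), both also trend-corrected. Of 90 chromatin regulators 11 rose and 13 fell (12.2% and 14.4%; trend-corrected 11 and 7; upper-quartile 7 and 26), and without 1 of the 6 libraries 8 to 9 rose and 3 to 9 fell. Sirt2, a deacetylase abundant in myelinating cells, stood at 135, 169 and 134 CPM in controls and 304, 293 and 307 after injury (1.04 ± 0.13, adjusted p = 0.00023), and Hdac5, a class IIa deacetylase that leaves the nucleus after axon injury, at 227, 243 and 201 CPM in controls and 472, 474 and 458 after injury (1.06 ± 0.18, adjusted p = 0.0011). Phf20, a reader of histone marks, was the faller with the smallest p (-1.52 ± 0.37, adjusted p = 0.0063). The 3 calls held trend-corrected. Of 51 splicing genes 8 rose and 9 fell (15.7% and 17.6%; trend-corrected 7 and 5; upper-quartile 4 and 15), and without 1 of the 6 libraries 3 to 6 rose and 4 to 7 fell. Srrm2, a scaffold of nuclear speckles, stood at 31.9, 36.7 and 39.5 CPM in controls and 12.6, 7.97 and 10.1 after injury (-1.81 ± 0.41, adjusted p = 0.0047), also trend-corrected (-1.67 ± 0.35, adjusted p = 0.0053), and Sf3b4 of the U2 particle at 14.7, 22.4 and 13.001 CPM in controls and 44.3, 49.4 and 47.3 after injury (1.49 ± 0.26, adjusted p = 0.0013), likewise also trend-corrected. Of 119 ubiquitin ligases and proteases 19 rose and 23 fell (16.0% and 19.3%; trend-corrected 18 and 15; upper-quartile 13 and 35; without 1 of the 6 libraries 13 to 18 rose and 11 to 21 fell), with Rnf130 (0.94 ± 0.15, adjusted p = 0.00099) and Rnf168 (-1.38 ± 0.29, adjusted p = 0.0032) at the head of each side. Among 8 clock genes Clock stood at 28.5, 20.5 and 24.1 CPM in controls and 10.9, 9.67 and 10.6 after injury (-1.23 ± 0.26, adjusted p = 0.0033) and Rora at 14.2, 12.5 and 15.5 CPM in controls and 6.32, 6.37 and 5.14 after injury (-1.24 ± 0.33, adjusted p = 0.0097). Both fell as counted and neither trend-corrected, and Per2 (-0.17 ± 0.19, adjusted p = 0.54), Arntl (0.41 ± 0.36, adjusted p = 0.40), Tef, Csnk1d, Usp2 and Timeless were not called. Of 10 glucocorticoid and metallothionein response genes 3 rose and 2 fell (trend-corrected 2 and 1, upper-quartile 3 and 2), with a median of 0.21 (trend-corrected 0.04). Their summed CPM was 614 to 720 in controls and 1225 to 1365 after injury. A sum follows its most abundant members, so with these medians it does not show a rise of the list as a whole. Klf9, a target of the glucocorticoid receptor, fell (-1.38 ± 0.35, adjusted p = 0.0081), also trend-corrected (-1.14 ± 0.31, adjusted p = 0.017), and 1 such gene does not give the direction of the list.

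**Figure D4:**
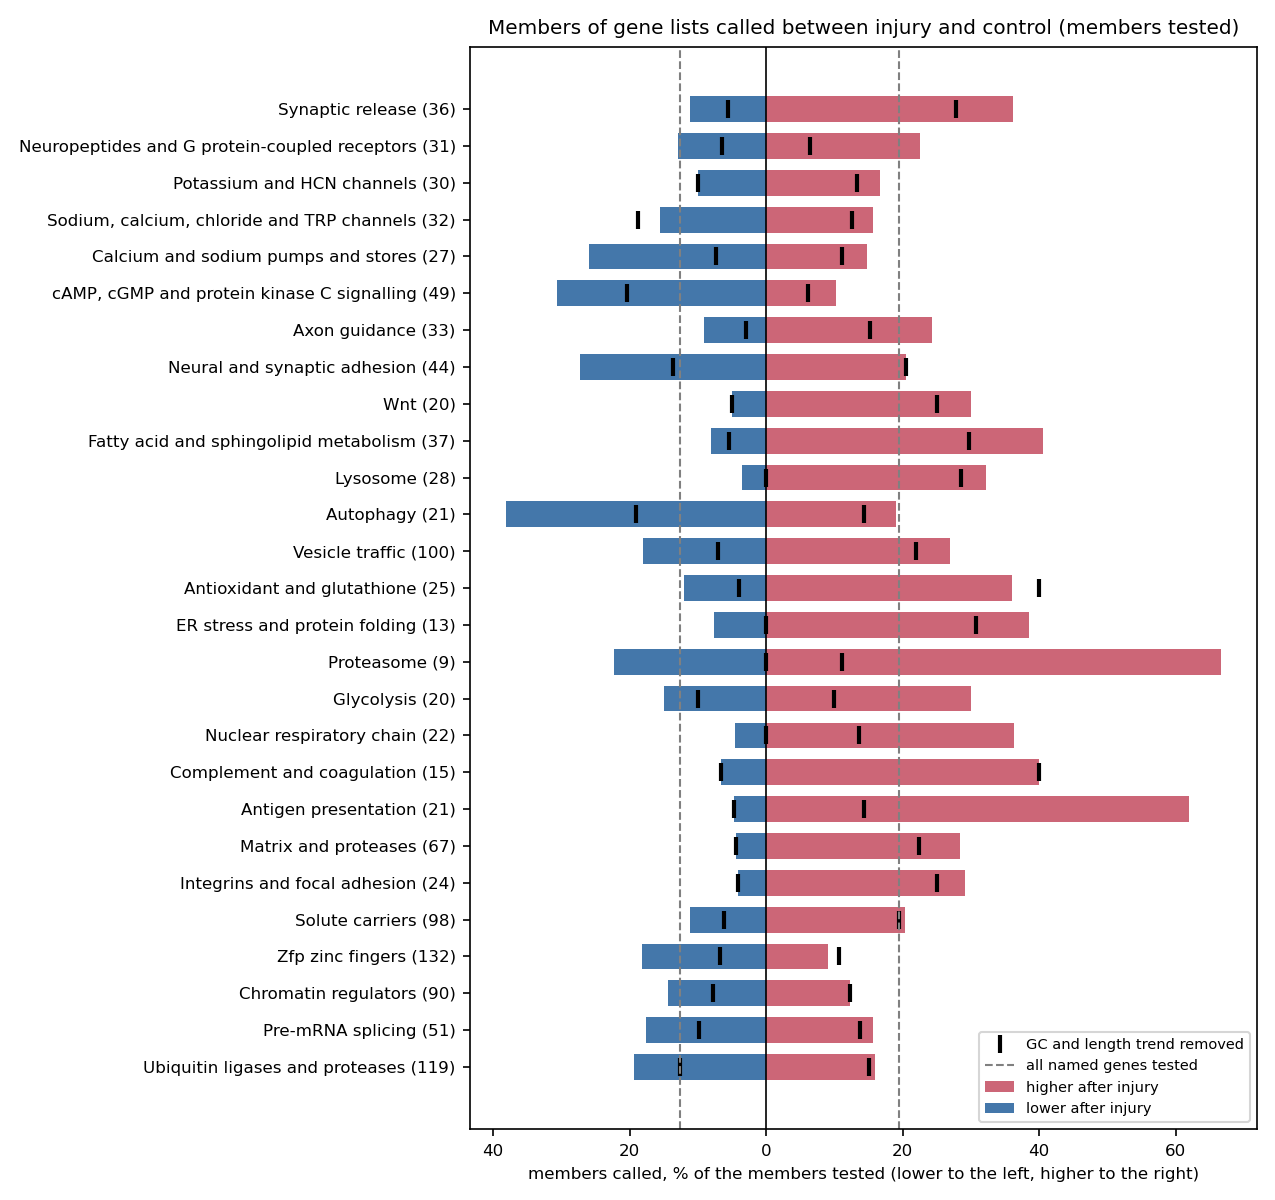
Share of the tested members of each gene list (y axis, number tested in brackets) called higher (red, to the right) or lower (blue, to the left) after injury, in % (x axis). Black ticks give the shares with the GC content and length trend removed and dashed lines the shares over all named genes, 19.5% and 12.6%. Antigen presentation and proteasome bars shrink most, while the complement and coagulation bar does not.

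For orientation, the same genes are given in the stimulated groups, which share the control libraries with this comparison, side by side and with no test of the difference. Slc17a6 stood at 65.5, 62.3 and 79.3 CPM in controls. After injury alone Slc17a6 had 17.3, 16.1 and 26.1 CPM, with injury plus stimulation 21.04, 53.2 and 25.6, and with stimulation and no wound 28.2, 29.1 and 38.7. Oprm1 stood at 28.6, 36.2 and 31.6 CPM in controls. After injury alone Oprm1 had 13.5, 7.22 and 13.3 CPM, with injury plus stimulation 6.72, 20.05 and 10.8, and with stimulation and no wound 8.93, 6.95 and 16.9. Trpc6 stood at 66.3, 82.4 and 70.6 CPM in controls. With the wound alone Trpc6 had 36.5, 39.4 and 44.2 CPM, with injury plus stimulation 50.1, 44.1 and 42.8, and with stimulation and no wound 31.1, 23.6 and 27.4. For all 3 genes the stimulated libraries also lay below every control. Clu stood at 588, 531 and 626 CPM in controls. After injury alone Clu had 1411, 1451 and 1511 CPM, with injury plus stimulation 1240.2, 705 and 1081, and with stimulation and no wound 1098, 1166 and 839.8. Tfe3 stood at 89.5, 92.8 and 72.97 CPM in controls. With the wound alone Tfe3 had 165, 173 and 162 CPM, with injury plus stimulation 185, 105 and 164, and with stimulation and no wound 167, 169.7 and 141. Every stimulated library was above every control for both Clu and Tfe3. Pltp stood at 35.4, 40.2 and 30.5 CPM in controls. With the wound alone Pltp had 141, 174 and 143 CPM, with injury plus stimulation 97.2, 43.5 and 62.4, and with stimulation and no wound 108, 141 and 79.8. Wnt4 stood at 14.2, 11.7 and 16.3 CPM in controls. After injury alone Wnt4 had 52.1, 48.5 and 49.6 CPM, with injury plus stimulation 19.1, 14.3 and 14.3, and with stimulation and no wound 11.02, 20.7 and 13.8. Gstm7 stood at 52.5, 42.8 and 48.3 CPM in controls. After injury alone Gstm7 had 177, 118 and 185 CPM, with injury plus stimulation 47.3, 43.5 and 44.9, and with stimulation and no wound 65.5, 83.3 and 42.9. For Wnt4 and Gstm7 the stimulated libraries lay below every library of injury alone and some of them within the range of the controls.

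**Figure D5:**
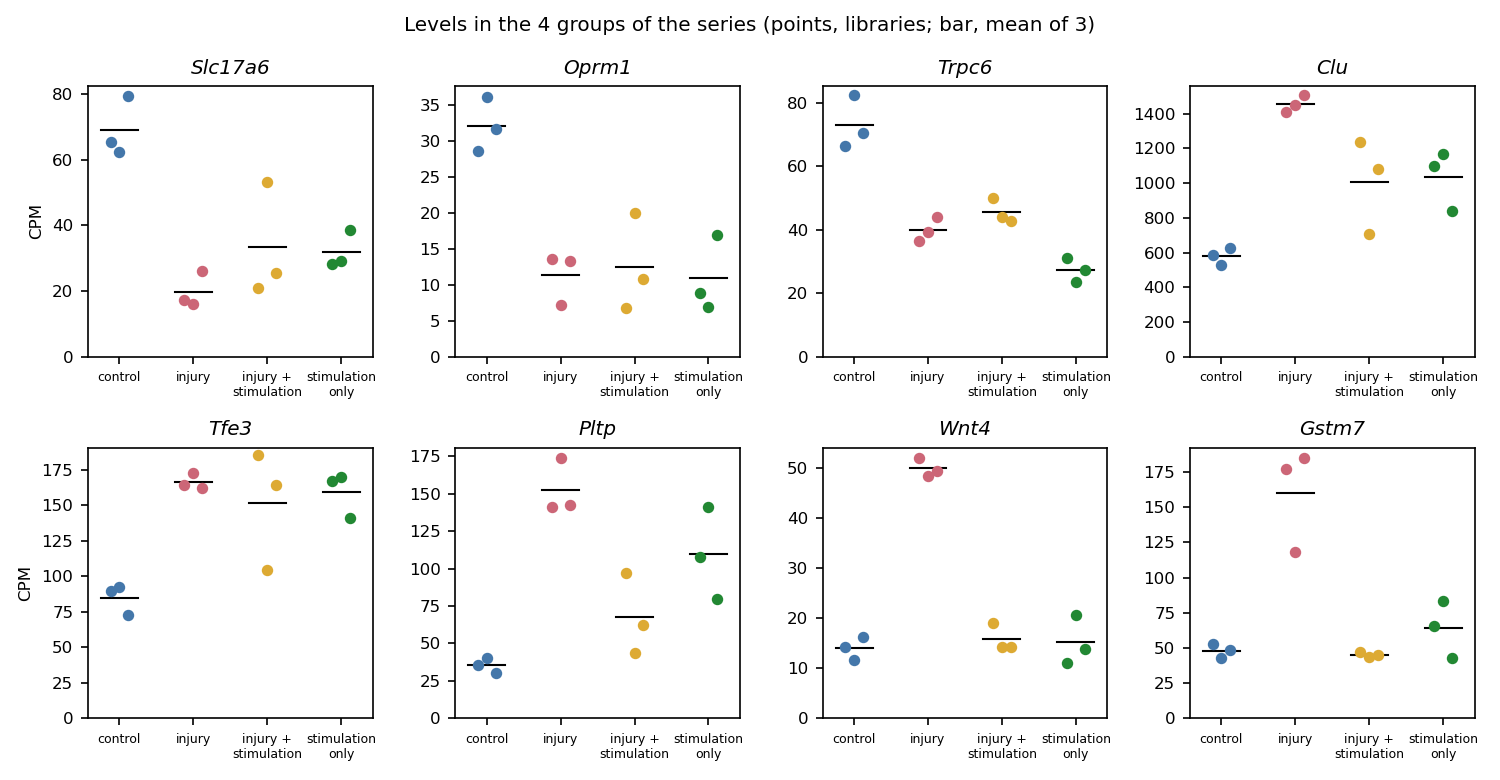
CPM (y axes, each from 0) of 8 genes in each library of the 4 groups, with the mean of 3 as a bar. Slc17a6, Oprm1 and Trpc6 are lower and Clu and Tfe3 higher than the controls in all 3 treated groups, while Wnt4 and Gstm7 are high in the libraries of injury alone.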

How the data were processed

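Poly(A) RNA of whole trigeminal ganglia was measured in 12 libraries, of which 3 control and 3 injury libraries were compared. The authors deposited whole-number read counts per Ensembl gene interval, made with featureCounts 2.0.6 per the file headers, from paired input without use of strand and with reads over several intervals counted for each. FastQC, Salmon 1.10.2 and DESeq2 are also in the submitters' processing notes, with no role given. The genome build of the alignments is not given in the sources used here.

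Intervals were set on GENCODE M21 (GRCm38) exons, and one was given a gene's name where it covered at least 100 exon bases of that gene alone. The counts of all 12 libraries were fitted with edgeR 4.0.16 (R 4.3.3, limma 3.58.1; robust quasi-likelihood test, TMM, filterByExpr), with Benjamini-Hochberg adjustment over 13053 intervals and a threshold of 0.05. The trend correction removed a spline with 5 degrees of freedom on GC content and on length per library through offsets. On simulated counts over 13053 intervals, 54% of 2-fold and 100% of 4-fold changes were recovered with 5 false calls. The changes, 100 of each size, were put only in well-counted intervals. All intervals had the same spread, and no trend on GC content, length or level was put in. The data had many more calls and such trends, so these rates do not carry over to them or to genes of few reads.

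Genes named are the 12 highest and 12 lowest called changes with at least 1 CPM and no overlap, leaving out marker and immediate early genes, up to 4 called members in each direction by p in each list, the uncalled member with the highest CPM, members of lists of up to 8, and marker genes. Exceptions are marked in the text, and some genes the rule would name are not reported here. Members and lists were chosen with earlier results of these data known. Alternatives were other scalings, no filter, DESeq2 1.42.0, the 6 libraries alone, a replicate block, trend correction and each library left out; a trend on the counted bases and a fit without mitochondrial intervals were chosen after seeing the data.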

Additional observations from a re-analysis of the deposited data

How the results depend on the processing

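Of 185 genes named, 171 were called, 131 of them in each of the 6 fits without 1 control or injury library and 103 in each of the 22 alternatives. Of the 171, 130 kept the call with the GC content and length trend removed, 162 with upper-quartile scaling, 169 in DESeq2, 170 in the 6 libraries alone and 166 with no filter. The count of intervals called was 4046 and ranged from 2465 (without injury library 2) to 4847 when 1 of the 12 libraries was left out, with 2683 without control library 3. The count of named genes was 1533 and ranged from 908 (without injury library 2) to 1851, with 1009 without control library 3. With the trend removed 966 named genes were called. Replicate numbers are shared between the groups, and the labels do not state whether they mark a shared batch. Deviations of same-numbered libraries correlated at 0.06, 0.02 and 0.02, and those of differently numbered libraries at -0.06 to 0.03. With 3 libraries a group these values cannot decide whether the numbers pair the libraries. With the number as a replicate block 3600 intervals and 1382 named genes were called, and 165 of the 171 genes kept the call; with the replicate block and the trend removed 2345 intervals and 829 named genes were called. The directions of 2 genes turned, the cause of which was not tested. Tmem106b went to 0.11 on the log2 scale with the trend removed and 0.11 with the block added. Epha7 went to 0.13 with the trend removed, 0.12 with the replicate block added and 0.04 with the trend on counted bases. Changes of genes near 1 CPM rest on few reads, and a common biological coefficient of variation of 0.235 limits calls of small changes.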
